A study of Mus musculus with 15 samples.

Results

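The 9 genes described here mark activation states of macrophages: Nos2, Irg1, Arg1, Chi3l3, Retnla, Mrc1, Cd163, Il4ra and Mgl2. They were taken by symbol from the 23420 gene symbols of a mouse melanoma expression table, in which 2 carry older names (Irg1 for Acod1 and Chi3l3 for Chil3). The rule is a list of symbols with no threshold on a value, and 9 of 9 passed the filter on low values that left 13592 genes for testing. Bulk RNA was sequenced from melanoma grafts on the flanks of female C57BL/6 mice, which were 8 weeks old at inoculation, and tumors were taken on day 13 after therapy on days 8, 10 and 12. The 15 libraries form 5 groups of 3. The groups are anti-PD-1 antibody in UV2 tumors, isotype control antibody in UV2 tumors, triple therapy in parental tumors, anti-PD-1 in parental tumors and isotype antibody in parental tumors. Parental tumors grew from the cell line D4M.3A.3, and UV2 tumors from D3UV2, a line with putative neoantigens induced by UVB light. Anti-PD-1 blocks the checkpoint receptor PD-1 of T cells. The sample characteristics give triple therapy as anti-PD-1 with imiquimod, an agonist of Tlr7 put on the skin, and ablative fractional photothermolysis, a laser treatment that vaporises narrow channels of tissue. The treatment protocol names isotype antibody in its place, so which antibody these 3 tumors received is unknown. Each line is a single line, so a difference between UV2 and parental tumors is a difference between these 2 lines. Whether the 3 tumors of a group grew in different mice is not stated, so the p-values below reflect spread between these libraries, which may be technical.

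Macrophages change their gene programme with the signals they receive. In mice, interferon gamma and ligands of Toll-like receptors drive a classical programme that includes Nos2 and Irg1, whereas IL-4 and IL-13 act through Il4ra and the transcription factor STAT6 on Arg1, Chi3l3, Retnla, Mrc1 and Mgl2, the alternative programme. Cd163 is induced by IL-10 and glucocorticoids, and macrophages in tumors often carry transcripts of both programmes. Several of these genes are also expressed outside macrophages: Arg1 and Chi3l3 in neutrophils, Mgl2 in dermal dendritic cells, Mrc1 in lymphatic endothelium, and Il4ra in many cell types.

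Values are TPM, the reads assigned to transcripts divided by transcript length and scaled to a total of 1000000 per library. Levels can therefore be compared between genes, but sequencing depth is unknown. A level of 1 TPM was reached by 12239 to 13993 genes, depending on the library. The 15 pan-macrophage markers (among them Cd68, Csf1r and the complement genes C1qa, C1qb and C1qc) were detected in every group, with summed levels of 16431 to 20955 TPM in UV2 anti-PD-1 libraries, 8710 to 13991 TPM in UV2 isotype libraries, 7918 to 12252 TPM under parental triple therapy, 4916 to 8041 TPM under parental anti-PD-1 and 5148 to 8366 TPM under parental isotype. Although the grafts are labelled melanoma, melanocyte lineage markers summed to 17.0 to 55.7 TPM across the libraries, and Tyrp1, which makes melanin, was listed at 0 in every library of 3 groups. The 15 keratinocyte markers summed to 239 to 37919 TPM under triple therapy, against at most 4.60 TPM under parental anti-PD-1 and at most 4.84 TPM under parental isotype. They summed to at most 4.34 TPM in UV2 isotype libraries and to 4.65, 4.24 and 379 TPM in UV2 anti-PD-1 libraries, so replicate 3 of that group lay above triple therapy replicate 2. Neutrophil markers summed to 151 to 3636 TPM under triple therapy, against 32.2 to 173 TPM under parental isotype. In bulk RNA, fewer cells of a type and less RNA per cell cannot be told apart, and this applies to every value below.

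Promoter sequences are shown for 4 members whose levels separated groups of libraries, so that their letters stand beside the values that follow: Irg1 and Retnla, which passed the test in 1 comparison, Chi3l3, which was higher in UV2 isotype and triple therapy tumors than in parental isotype tumors, and Mgl2, whose levels broadly followed those of Retnla. Each sequence runs 5′ to 3′ from 250 bases before to 50 bases after the gene's start in RefSeq (build GRCm38.p6). There, 7 of 9 members had an entry, all but Nos2 and Arg1. Mrc1 and Il4ra, which also separated some groups, and Cd163 are not shown. Capitals mark matches on either strand to a kappaB-type motif (GGG, any 5 bases, CC), to TTC, any 3 bases, GAA (a gamma-activated motif), to TTC, any 4 bases, GAA (the spacing that STAT6 prefers) and to TATAAA. The windows are chr14:103046762-103047061 on the plus strand for Irg1, chr16:48842359-48842658 on the plus strand for Retnla, chr3:106167515-106167814 on the minus strand for Chi3l3 and chr11:70130107-70130406 on the plus strand for Mgl2.
Irg1: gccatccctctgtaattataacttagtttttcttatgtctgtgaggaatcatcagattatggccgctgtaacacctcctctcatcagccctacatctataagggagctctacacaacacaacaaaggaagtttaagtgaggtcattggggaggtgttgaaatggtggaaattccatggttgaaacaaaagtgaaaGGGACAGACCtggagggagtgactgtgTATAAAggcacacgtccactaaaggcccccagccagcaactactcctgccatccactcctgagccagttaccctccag
Retnla: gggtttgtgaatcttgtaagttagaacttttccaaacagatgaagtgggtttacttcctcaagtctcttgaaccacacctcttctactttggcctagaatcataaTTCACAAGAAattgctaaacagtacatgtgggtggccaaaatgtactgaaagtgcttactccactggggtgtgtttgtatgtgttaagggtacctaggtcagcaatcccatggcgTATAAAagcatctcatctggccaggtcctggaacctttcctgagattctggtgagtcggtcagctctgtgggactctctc
Chi3l3: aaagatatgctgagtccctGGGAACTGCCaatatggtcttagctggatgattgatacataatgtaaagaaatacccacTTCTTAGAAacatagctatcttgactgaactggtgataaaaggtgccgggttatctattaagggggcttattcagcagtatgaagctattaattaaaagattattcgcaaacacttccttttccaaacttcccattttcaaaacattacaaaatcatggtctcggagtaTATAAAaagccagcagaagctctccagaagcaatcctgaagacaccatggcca
Mgl2: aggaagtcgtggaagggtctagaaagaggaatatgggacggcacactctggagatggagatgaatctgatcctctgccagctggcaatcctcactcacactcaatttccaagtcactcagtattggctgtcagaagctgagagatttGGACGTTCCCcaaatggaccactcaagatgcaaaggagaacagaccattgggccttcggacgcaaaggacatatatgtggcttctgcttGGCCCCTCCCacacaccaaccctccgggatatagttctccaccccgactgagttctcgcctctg

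The Irg1 window held a kappaB-type match that began at position -55 relative to the start and a TATAAA at -28. The Retnla window held the STAT6 spacing at -145, a TATAAA at -30 and no kappaB-type match. In Chi3l3, a kappaB-type match began at -231, a gamma-activated match at -172 and a TATAAA at -3. Mgl2 had kappaB-type matches at -103 and -14 and none of the other 3 motifs. The windows of Mrc1, Cd163 and Il4ra, not shown, also held kappaB-type matches. The motifs chosen did not overlap one another in these windows. Among 32851 RefSeq promoters of the same length, 50.8% held the kappaB-type motif, 8.30% the gamma-activated motif, 6.95% the STAT6 spacing and 13.6% TATAAA. A match describes letters, not binding.

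Ranked by mean level over the 15 libraries, Il4ra, the receptor chain shared by IL-4 and IL-13, was the most abundant of the 9 genes (118 ± 35.1 TPM, SD, n = 15), followed by Arg1 (106 ± 107 TPM) and Mrc1 (81.9 ± 30.3 TPM). Retnla, Chi3l3, Irg1, Mgl2 and Nos2 averaged 27.0, 26.4, 19.7, 13.9 and 11.8 TPM, and Cd163 was lowest at 8.79 ± 8.12 TPM. The gap below Mrc1 was the clearest step, since Mrc1 exceeded Retnla in 14 of 15 libraries. Other neighbours in the order crossed often: Arg1 exceeded Mrc1 in 8 of 15 libraries, and Retnla exceeded Chi3l3 in 6 of 15. The genes also differed in how far replicates spread. The SD of log2(TPM + 1) within groups was 0.37 for Il4ra, 0.49 for Irg1 and for Mrc1, and 0.59 for Nos2, against 1.53 for Retnla, 1.27 for Arg1, 1.23 for Mgl2 and 1.12 for Cd163. Fold changes of the last 4 are therefore the least precise. The plot of all 9 genes shows each library.

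**Figure D1:**
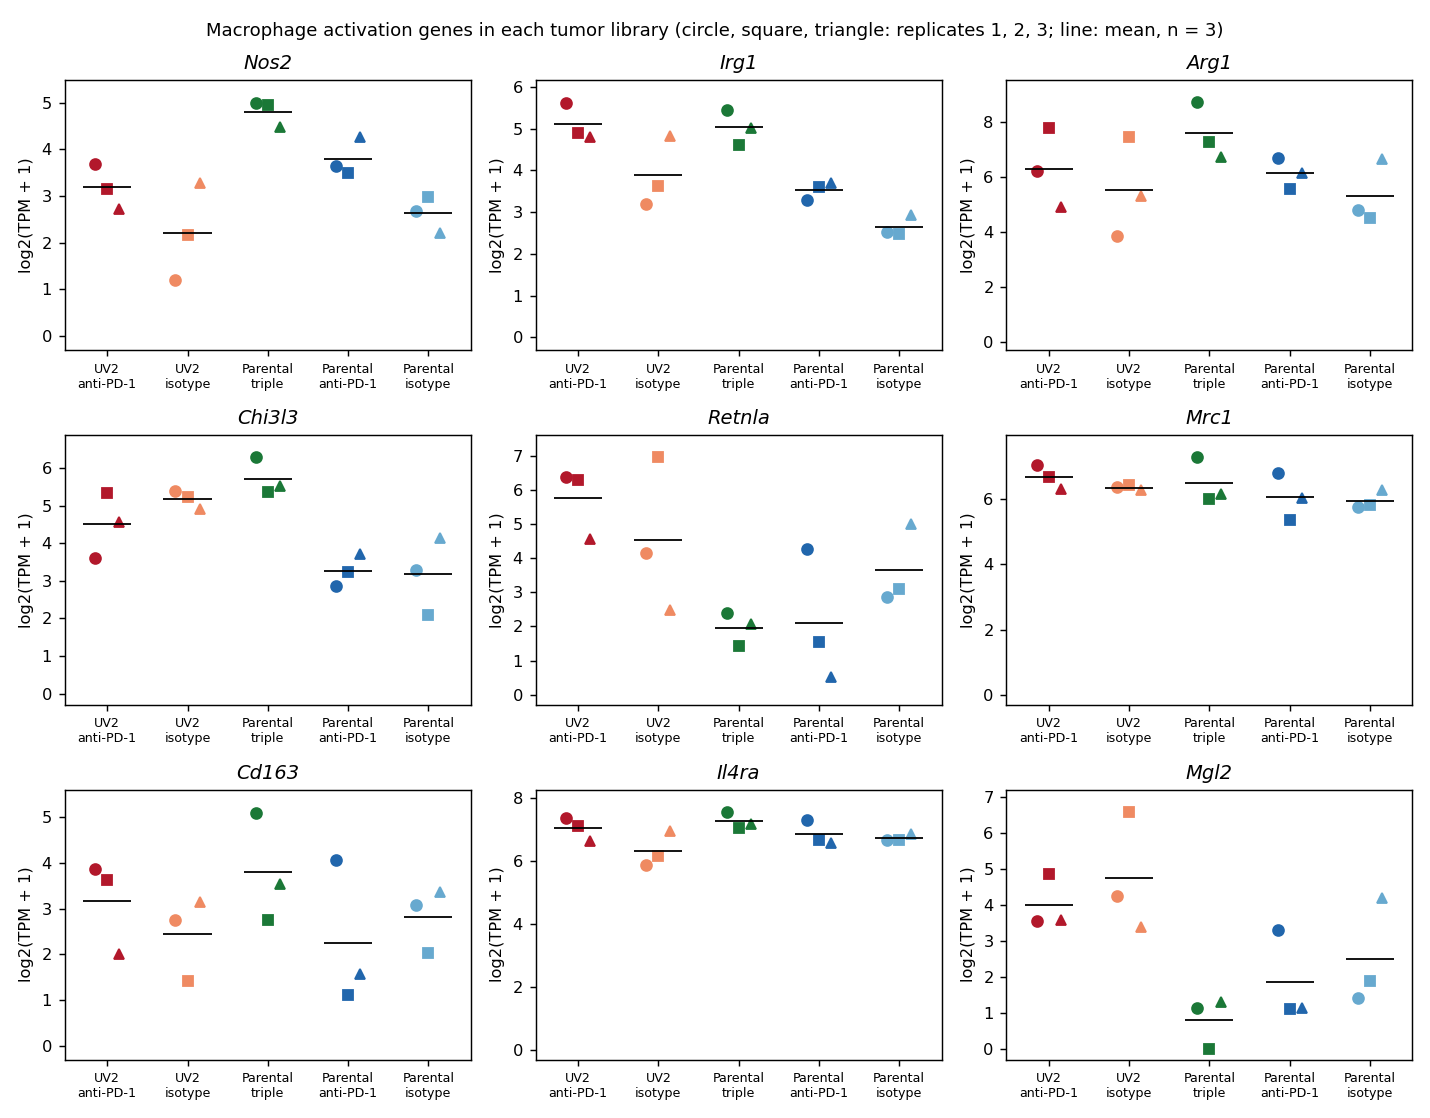
Level of each gene as log2(TPM + 1) in the 15 libraries, with 1 panel per gene, groups along the horizontal axis, 1 symbol per library and a line at the group mean (n = 3). Irg1 lies at 3.20 or higher in every UV2 and every triple therapy library and at 2.92 or lower in every parental isotype library, whereas Retnla and Arg1 spread widely within groups.

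Nos2 encodes inducible nitric oxide synthase, which makes nitric oxide from arginine (chromosome 11, 78920787 to 78960254, GRCm38). Its levels were 11.85, 7.82 and 5.60 TPM in UV2 anti-PD-1 libraries, 1.28, 3.46 and 8.65 TPM in UV2 isotype libraries, 30.82, 30.08 and 21.22 TPM under parental triple therapy, 11.56, 10.22 and 18.08 TPM under parental anti-PD-1, and 5.42, 6.92 and 3.64 TPM under parental isotype. Triple therapy libraries were the 3 highest of the 15, and anti-PD-1 libraries of the parental line lay above those of parental isotype without overlap. UV2 anti-PD-1 overlapped both of its neighbours in the order of means, parental anti-PD-1 and parental isotype.

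Irg1 encodes the enzyme that makes itaconate, a metabolite that inhibits succinate dehydrogenase (chromosome 14, 103046977 to 103056573). It stood at 48.13, 28.83 and 26.69 TPM in UV2 anti-PD-1 libraries, 8.19, 11.43 and 27.43 TPM in UV2 isotype libraries, 42.80, 23.52 and 31.35 TPM under triple therapy, 8.83, 11.11 and 11.93 TPM under parental anti-PD-1, and 4.79, 4.59 and 6.59 TPM under parental isotype. The UV2 anti-PD-1 and triple therapy groups overlapped each other and lay above parental anti-PD-1, which in turn lay above parental isotype. UV2 isotype replicate 3 lay above the lowest of the UV2 anti-PD-1 libraries and below the other two.

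The ratio of Irg1 to Nos2 differed by line. Irg1 was 3.69 to 4.77 times Nos2 in UV2 anti-PD-1 libraries and 3.17 to 6.40 times Nos2 in UV2 isotype libraries. Among parental libraries the ratio of the TPM values was 0.78 to 1.48 under triple therapy, 0.66 to 1.09 under anti-PD-1 and 0.66 to 1.81 under isotype. The 6 UV2 libraries lay above the 9 parental libraries without overlap. This ratio was singled out after the values were seen and carries no test.

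**Figure D2:**
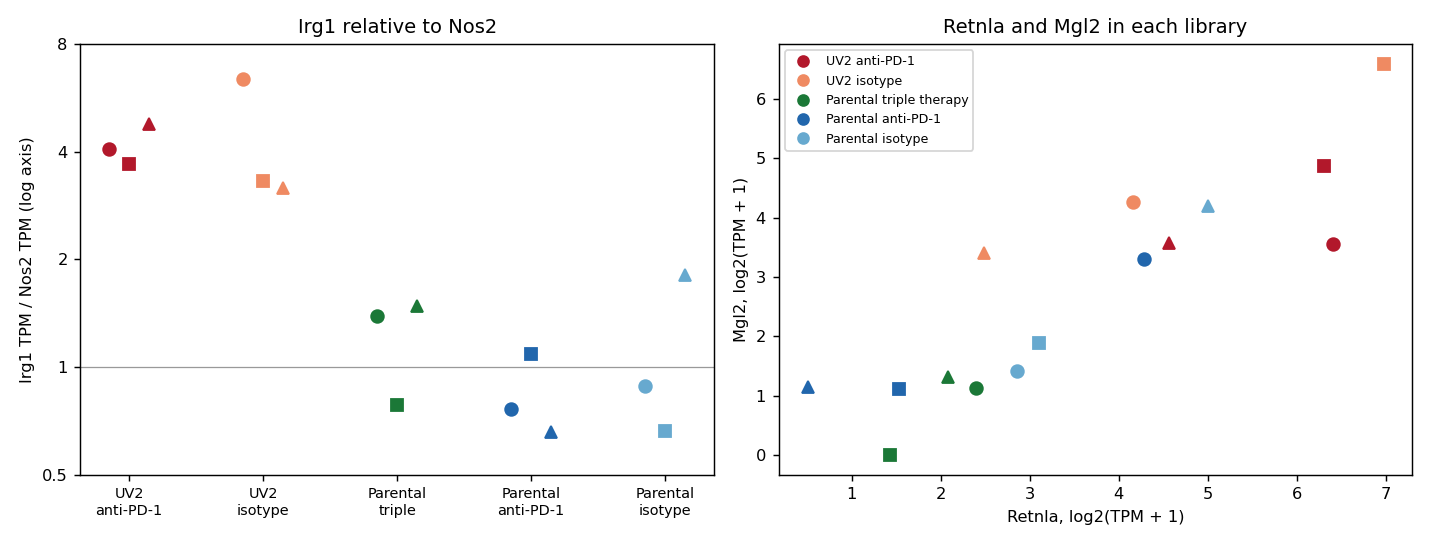
Left, Irg1 TPM divided by Nos2 TPM in each library on a log axis, with groups along the horizontal axis and a grey line at 1: the UV2 libraries lie at 3.17 or higher and the parental libraries at 1.81 or lower. Right, Mgl2 against Retnla, both as log2(TPM + 1), 1 point per library with circles, squares and triangles for replicates 1, 2 and 3: libraries higher in Retnla tended to be higher in Mgl2. UV2 anti-PD-1 replicate 1 has the highest Retnla of its group (6.40) and the lowest Mgl2 (3.56).

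Arg1 encodes arginase, which competes with Nos2 for arginine (chromosome 10, 24915221 to 24927484). It was measured at 72.62, 219.95 and 28.70 TPM in UV2 anti-PD-1 libraries, 13.50, 173.08 and 38.14 TPM in UV2 isotype libraries, 425.30, 153.51 and 105.73 TPM under triple therapy, 101.15, 45.70 and 69.89 TPM under parental anti-PD-1, and 26.98, 21.74 and 98.28 TPM under parental isotype. The triple therapy libraries lay above those of both other parental groups, and the UV2 groups overlapped every other group. Arg1 exceeded Nos2 in every library, with a Nos2 to Arg1 ratio of 0.0200 to 0.318.

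Chi3l3 encodes Ym1, a secreted chitinase-like protein (chromosome 3, 106147554 to 106167564). Its levels were 11.09, 39.24 and 22.78 TPM in UV2 anti-PD-1 libraries, 40.48, 36.70 and 28.91 TPM in UV2 isotype libraries, 76.87, 39.82 and 44.80 TPM under triple therapy, 6.24, 8.34 and 12.20 TPM under parental anti-PD-1, and 8.81, 3.24 and 16.63 TPM under parental isotype. UV2 isotype and triple therapy libraries lay above both other parental groups, while UV2 anti-PD-1 overlapped them through its replicate 1. Of the 50-base words in Chi3l3 transcripts, 26.9% occur in other genes and 16.9% in Chil4, so part of its reads could be assigned elsewhere. Chil4, named Chi3l4 in the table, was listed at 0 in 13 of 15 libraries and reached 4.30 TPM in triple therapy replicate 3.

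Retnla encodes the secreted protein Fizz1, or RELM alpha (chromosome 16, 48842551 to 48844461). It reached 83.60, 78.33 and 22.61 TPM in UV2 anti-PD-1 libraries, 16.92, 124.74 and 4.61 TPM in UV2 isotype libraries, 4.26, 1.70 and 3.23 TPM under triple therapy, 18.41, 1.89 and 0.42 TPM under parental anti-PD-1, and 6.26, 7.57 and 31.10 TPM under parental isotype. UV2 anti-PD-1 libraries lay above those of parental anti-PD-1, and triple therapy libraries lay below those of parental isotype. Mgl2, a lectin that binds galactose and N-acetylgalactosamine (chromosome 11, 70130329 to 70137550), was listed at 10.77, 28.14 and 10.95 TPM in UV2 anti-PD-1 libraries, 18.23, 95.51 and 9.58 TPM in UV2 isotype libraries, 1.19, 0 and 1.48 TPM under triple therapy, 8.86, 1.16 and 1.21 TPM under parental anti-PD-1, and 1.66, 2.71 and 17.39 TPM under parental isotype. Retnla and Mgl2 were both highest in UV2 isotype replicate 2, and within the parental isotype and parental anti-PD-1 groups both peaked in the same library. In the UV2 anti-PD-1 and triple therapy groups they peaked in different libraries. The 10 adipocyte markers summed to 872 TPM in that parental isotype library and to at most 45.8 TPM in the others of its group. They summed to 1456 TPM in that parental anti-PD-1 library and to at most 19.0 TPM in the others of its group. Triple therapy replicate 1 had 802 TPM of these markers beside 4.26 TPM of Retnla. The part of adipocytes in these values was not tested. In transcripts of Mgl2, 12.2% of 50-base words also occur in Clec10a, its neighbouring paralog, so the Mgl2 levels are uncertain in part.

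For the 3 remaining members, groups next to each other in the order of means overlapped, and some groups further apart did not. Mrc1, the mannose receptor (chromosome 2, 14229392 to 14332057), averaged 103 ± 26.3 TPM in UV2 anti-PD-1 libraries, 80.0 ± 3.83 TPM in UV2 isotype libraries, 95.3 ± 50.8 TPM under triple therapy, 70.6 ± 34.6 TPM under parental anti-PD-1 and 60.9 ± 12.4 TPM under parental isotype (SD, n = 3 each). Cd163, the scavenger receptor for haptoglobin and haemoglobin (chromosome 6, 124304656 to 124330527), averaged 9.34 ± 5.57 TPM in UV2 anti-PD-1 libraries, 5.10 ± 3.16 TPM in UV2 isotype libraries, 16.6 ± 14.6 TPM under triple therapy, 6.33 ± 8.25 TPM under parental anti-PD-1 and 6.62 ± 3.19 TPM under parental isotype. Il4ra (chromosome 7, 125552120 to 125579474) averaged 132 ± 32.5 TPM in UV2 anti-PD-1 libraries, 83.2 ± 33.9 TPM in UV2 isotype libraries, 153 ± 30.0 TPM under triple therapy, 117 ± 34.0 TPM under parental anti-PD-1 and 104 ± 7.94 TPM under parental isotype. Il4ra was higher in each triple therapy library than in each isotype library of either line, and Mrc1 was higher in each UV2 isotype library than in each parental isotype library. The ligands of Il4ra were near the limit of the table, with Il4 at 3.12 TPM or lower and Il13 at 1.97 TPM or lower in every library.

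UV2 and parental tumors were compared under anti-PD-1 to ask how the lines differed when both received the antibody. Log2 fold changes below are differences of log2(TPM + 1) with their standard error, tested with limma across all genes, where a gene was called if its p, adjusted by the Benjamini-Hochberg method, was under 0.05. Of the 9 members, 2 were called, both higher in UV2 tumors. Counting both directions, 26.4% of all tested genes were called, so that share is near the background. By direction, 1265 of 13592 genes were called higher and 2321 lower. Irg1 averaged 34.6 ± 11.8 TPM in UV2 tumors and 10.6 ± 1.61 TPM in parental tumors, a difference of 1.57 ± 0.37 (adjusted p = 0.0179, 3 of 3 UV2 libraries above 3 of 3 parental libraries). Retnla averaged 61.5 ± 33.8 TPM in UV2 tumors and 6.91 ± 9.99 TPM in parental tumors, a difference of 3.65 ± 1.10 (adjusted p = 0.0342, again without overlap). Mgl2 also lay higher in every UV2 library (2.15 ± 0.90) but missed the threshold at an adjusted p of 0.0837. These were 3 members without overlap in the upward direction, which 16.9% of all genes showed. No member was lower in each UV2 library, a pattern of 34.3% of all genes. Chi3l3 measured 1.23 ± 0.50 (adjusted p = 0.0778), Cd163 0.91 ± 0.82, Mrc1 0.62 ± 0.36, Il4ra 0.18 ± 0.28, Arg1 0.17 ± 0.92 and Nos2 -0.62 ± 0.44, and none of these passed. The median of the 9 differences was 0.91, beside -0.21 over all tested genes. Median-of-ratios scaling moved the median over all genes to 0.03, and Irg1 and Retnla then measured 1.83 and 3.90 with adjusted p-values of 0.00956 and 0.0277.

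The summed pan-macrophage level differed in the same direction without overlap, at 16431 to 20955 TPM in UV2 anti-PD-1 libraries and 4916 to 8041 TPM in parental anti-PD-1 libraries, and 11 of its 15 genes rose. With the mean pan-macrophage level of each library as a covariate, Irg1 measured 0.23 ± 0.52 (adjusted p = 0.837) and Retnla 1.79 ± 2.001 (adjusted p = 0.684). In that fit 0 of 13592 genes were called, and the level and the group cannot be told apart where they do not overlap. The calls also depended on single libraries. Without parental anti-PD-1 replicate 3 or without UV2 anti-PD-1 replicate 3, 0 members and 9 of all genes were called, with adjusted p-values of Irg1 of 0.0762 and 0.0609, and Irg1 also missed the threshold without parental anti-PD-1 replicate 1 (adjusted p = 0.0513). The count of all genes called was 1216 without parental anti-PD-1 replicate 1 and 1477 without UV2 anti-PD-1 replicate 2, compared with 3586 in the fit on all libraries. Retnla passed in 1 of the 6 fits that left out a library, the one without parental anti-PD-1 replicate 1 (adjusted p = 0.0256), and otherwise had an adjusted p of 0.0620 to 0.135.

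**Figure D3:**
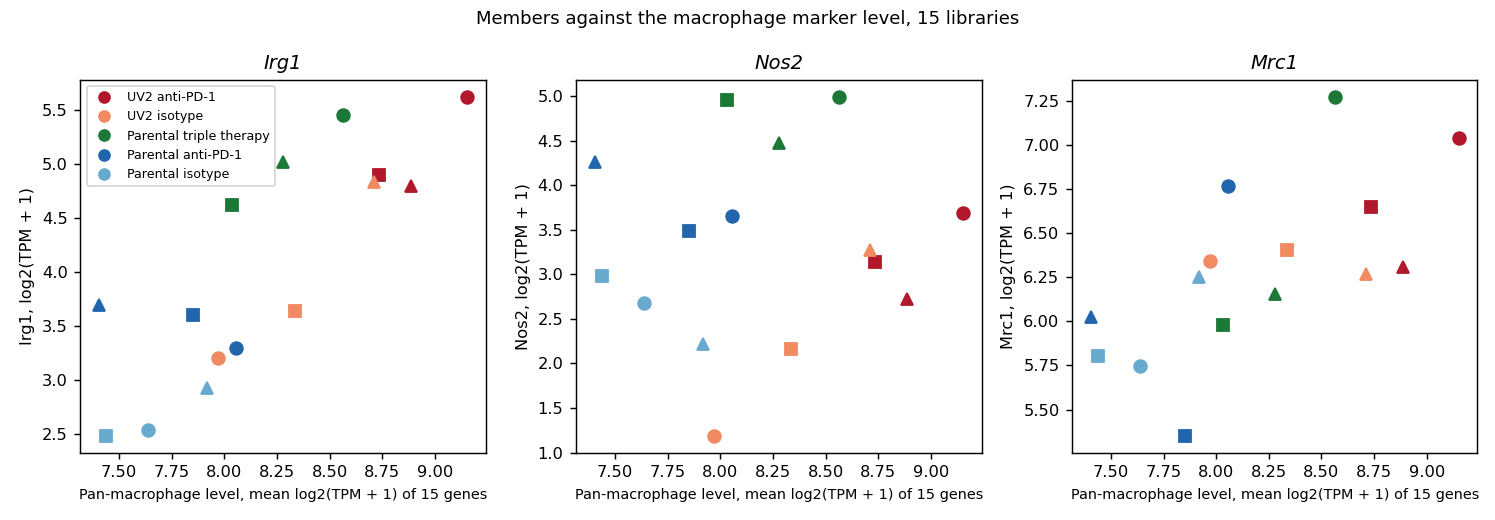
Irg1, Nos2 and Mrc1 as log2(TPM + 1) against the mean log2(TPM + 1) of 15 pan-macrophage markers, 1 point per library, coloured by group, with circles, squares and triangles for replicates 1, 2 and 3. UV2 anti-PD-1 libraries have the highest macrophage level (8.74 to 9.15), and parental isotype libraries (7.44 to 7.92) have the 3 lowest Irg1 values.

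Other genes of the same pathways are read against the 26.4% of all genes called in this comparison in either direction (1265 higher and 2321 lower). Of 17 other classical activation genes tested, 9 rose in UV2 anti-PD-1 tumors and 1 fell. Tnf, the cytokine tumor necrosis factor, averaged 17.1 ± 2.58 TPM in UV2 tumors and 6.38 ± 0.42 TPM in parental tumors (1.29 ± 0.19, adjusted p = 0.00927). Il12b, a chain of IL-12 and IL-23, measured 1.87 ± 0.30 (adjusted p = 0.00957), Cd40, a receptor for T cell help, 1.80 ± 0.35 (adjusted p = 0.0114) and Gpr18 1.81 ± 0.41 (adjusted p = 0.0171). Among the 20 genes of the interferon gamma and Toll-like receptor input, 8 rose and 0 fell. Ifng itself stood at 29.52, 18.81 and 30.92 TPM in UV2 anti-PD-1 libraries, against 3.42, 5.12 and 5.12 TPM in parental anti-PD-1 libraries (2.29 ± 0.51, adjusted p = 0.0160). Its groups did not overlap. Nfkbia, an inhibitor of NF-kappaB that NF-kappaB induces, measured 0.95 ± 0.15 (adjusted p = 0.00957), the interferon regulatory factor Irf8 1.60 ± 0.29 (adjusted p = 0.0106) and the adaptor Myd88 0.89 ± 0.22 (adjusted p = 0.0198).

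On the alternative side, 4 of 20 other alternative activation genes rose in UV2 anti-PD-1 tumors and 2 fell. Counted in both directions, this share is near that 26.4%. Of the 20 values, 16 were positive, with a median of 0.90 beside -0.21 over all genes. Folr2, a folate receptor of resident macrophages, measured 1.57 ± 0.41 (adjusted p = 0.0229), the beta-glucan receptor Clec7a 1.62 ± 0.45 (adjusted p = 0.0276) and the chemokine Ccl22 1.89 ± 0.55 (adjusted p = 0.0309), whereas the cyclooxygenase gene Ptgs1 fell by 2.64 on the log2 scale (SE 0.56, adjusted p = 0.0138). In the IL-4 and IL-13 pathway 6 of 16 rose and 2 fell, among them Batf3 (3.42 ± 0.63, adjusted p = 0.0110), a factor also used by dendritic cells, Ptpn6 (1.68 ± 0.29, adjusted p = 0.0105), Socs1, an inhibitor of cytokine signalling (1.55 ± 0.36, adjusted p = 0.0179), and Klf4, a transcription factor that IL-4 induces, which fell by 1.57 (SE 0.31, adjusted p = 0.0119). The list of IL-10, CSF and TGF-beta input had 4 of 15 higher and 0 lower, again near the share of all genes called in either direction. Its values were positive in 10 of 15 genes, with a median of 0.57. The 4 were Il10 at 2.09 ± 0.35 (adjusted p = 0.00996), its receptor Il10ra at 1.91 ± 0.37 (adjusted p = 0.0114), Csf2ra at 1.14 ± 0.31 (adjusted p = 0.0263) and Maf at 0.97 ± 0.31 (adjusted p = 0.0381). Arginine and itaconate metabolism, where the called share was no higher than over all genes, had 1 of 19 higher, Sdhb (0.54 ± 0.18, adjusted p = 0.0464), and 3 lower, among which the arginine transporter Slc7a1 fell by 1.40 (adjusted p = 0.0233) and Nfe2l2, a factor of the antioxidant response, fell by 0.83 (adjusted p = 0.0243). Dendritic cell markers (5 of 12 higher), monocyte markers (4 of 7 higher, 1 lower) and T cell markers (10 of 12 higher) moved beside these lists, while 0 of 11 neutrophil markers were called. Fibroblast markers had 3 of 10 higher and 1 lower, and eosinophil and mast cell markers 1 of 8 higher. Adipocyte markers had 0 of 10 called but 9 of 10 positive values (median 1.46). They summed to 174 to 864 TPM in UV2 anti-PD-1 libraries and to 1456, 14.3 and 19.0 TPM in parental anti-PD-1 libraries. The part of those cells in the members' values was not tested. Each list's count, the macrophage one included, was 0 without parental anti-PD-1 replicate 3 and 0 without UV2 anti-PD-1 replicate 3, the library with 379 TPM of keratinocyte markers.

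UV2 and parental tumors were also compared under isotype antibody, that is, without immunotherapy. No member passed the test (0 of 9, with 1.29% of all genes called), while 3 had an unadjusted p under 0.05. Irg1, Chi3l3 and Mrc1 were higher in each UV2 isotype library than in each parental isotype library, which 10.4% of all genes showed. Chi3l3 averaged 35.4 ± 5.90 TPM in UV2 tumors and 9.56 ± 6.73 TPM in parental tumors (1.998 ± 0.50, adjusted p = 0.0692). It passed without parental isotype replicate 3, its highest parental library (adjusted p = 0.0273), in a fit with 457 of all genes called. Irg1 averaged 15.7 ± 10.3 TPM in UV2 tumors and 5.32 ± 1.10 TPM in parental tumors (1.24 ± 0.37, adjusted p = 0.105), and passed without UV2 isotype replicate 1 (adjusted p = 0.0419). Mgl2 measured 2.25 ± 0.90 (adjusted p = 0.205) with overlapping groups. Nos2 measured -0.42 ± 0.44, Il4ra -0.39 ± 0.28 and Cd163 -0.38 ± 0.82. The median of the 9 differences was 0.41, beside -0.04 over all genes. The summed pan-macrophage level was 8710 to 13991 TPM in UV2 isotype libraries and 5148 to 8366 TPM in parental isotype libraries, without overlap.

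Around the members, 3 other classical activation genes rose and 1 fell in UV2 isotype tumors, of 17 tested. Tnf measured 1.24 ± 0.19 (adjusted p = 0.0214), Cd40 1.88 ± 0.35 (adjusted p = 0.0308) and Il12b 1.39 ± 0.30 (adjusted p = 0.0440). Ptgs2, the inducible cyclooxygenase, averaged 11.6 ± 8.06 TPM in UV2 tumors and 197 ± 49.0 TPM in parental tumors and fell by 4.14 (SE 0.82, adjusted p = 0.0376). Irf8 rose (1.37 ± 0.29, adjusted p = 0.0421), the 1 called gene of the interferon gamma and Toll-like receptor list. In the IL-4 and IL-13 pathway Socs1 (1.84 ± 0.36, adjusted p = 0.0375) and Ptpn6 (1.43 ± 0.29, adjusted p = 0.0386) rose, 2 of 16. Il10 rose as well (1.61 ± 0.35, adjusted p = 0.0440), the 1 called of 15 genes of the IL-10, CSF and TGF-beta input, as did 1 of 15 pan-macrophage markers, Fcgr1 (1.29 ± 0.27, adjusted p = 0.0395). None of the 20 other alternative activation genes was called. The 2 with the smallest p were Ptgs1 at -2.45 ± 0.56 (adjusted p = 0.0536) and the chemokine Ccl17 at 3.11 ± 0.74 (adjusted p = 0.0573), and 0 of 19 genes of arginine and itaconate metabolism were called. Markers of other cell types stood beside these genes: the monocyte marker Ly6c2 rose (2.75 ± 0.60, adjusted p = 0.0440), 1 of 7 monocyte markers. T cell markers had 0 of 12 called but 12 of 12 positive values (median 1.39), with sums of 93.1 to 391 TPM in UV2 isotype libraries and 52.4 to 172 TPM in parental isotype libraries. Dendritic cell markers had 0 of 12 called and 11 of 12 positive values, with sums of 267 to 290.0 TPM in UV2 isotype libraries and 163 to 207 TPM in parental isotype libraries. Their part in the members' values was not tested.

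**Figure D4:**
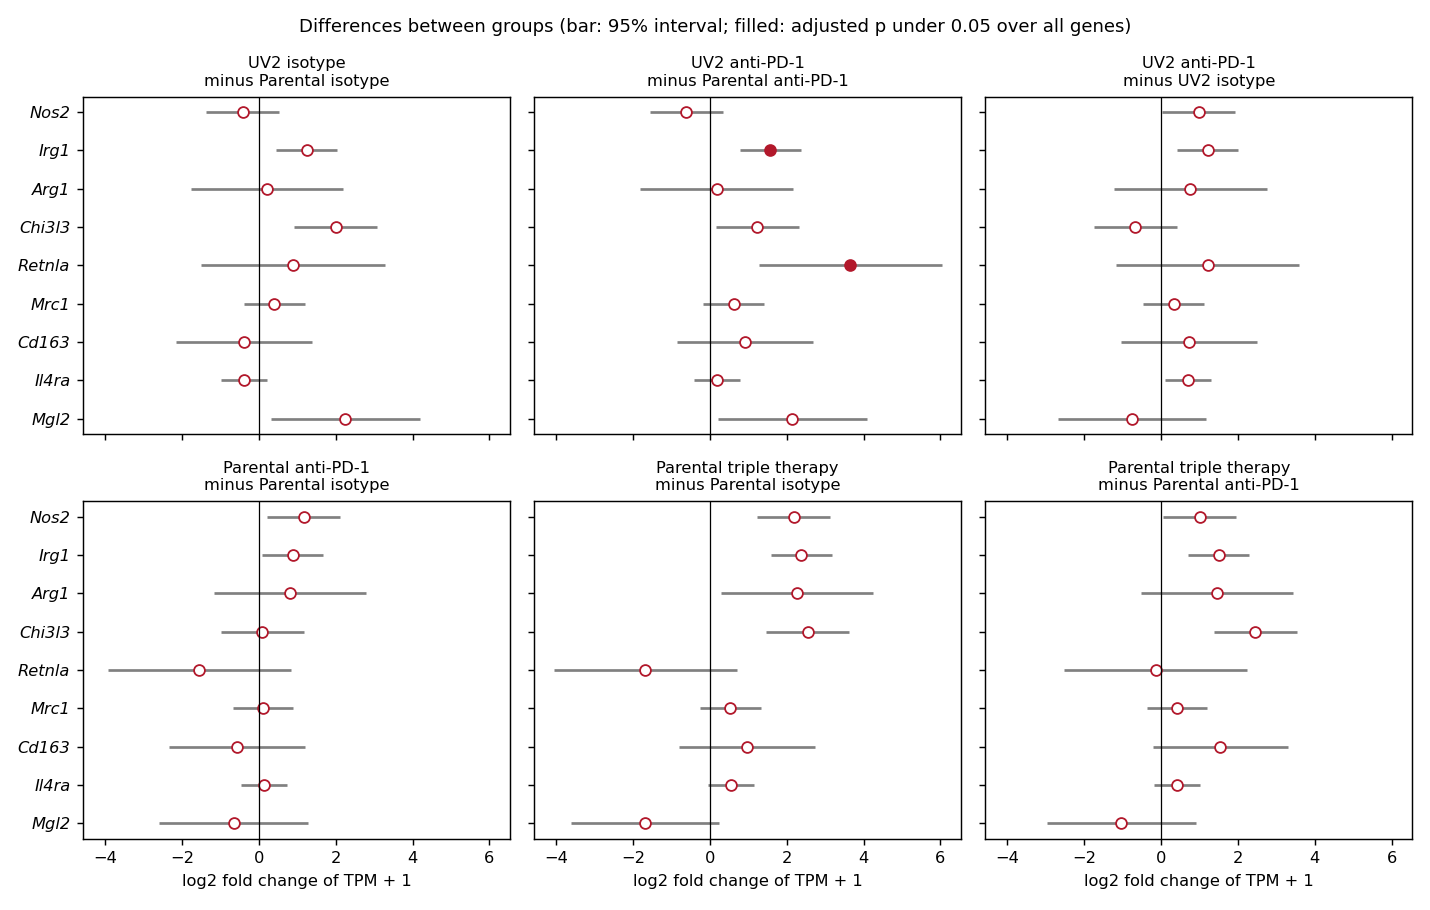
Difference of log2(TPM + 1) between groups for the 9 genes in 6 comparisons, 1 panel each, with 95% confidence intervals from limma as bars and the gene names on the vertical axis. Filled points mark an adjusted p under 0.05 over all genes, which Irg1 and Retnla reached in UV2 anti-PD-1 minus parental anti-PD-1.

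Parental tumors under triple therapy were set against those under isotype antibody. Here 0 of 9 members passed, with 0.0221% of all genes called, while 4 members and 1714 of all genes had an unadjusted p under 0.05. The groups nevertheless separated for most members: 5 were higher in each triple therapy library than in each isotype library (12.7% of all genes) and 2, Retnla and Mgl2, were lower in each (3.39% of all genes). Irg1 averaged 32.6 ± 9.70 TPM under triple therapy and 5.32 ± 1.10 TPM under isotype (2.38 ± 0.37, adjusted p = 0.0592). Nos2 averaged 27.4 ± 5.34 TPM under triple therapy and 5.33 ± 1.64 TPM under isotype (2.18 ± 0.44, adjusted p = 0.195). Among alternative activation genes, Chi3l3 measured 2.54 ± 0.50 (53.8 ± 20.1 TPM under triple therapy and 9.56 ± 6.73 TPM under isotype, adjusted p = 0.183), and Arg1 2.27 ± 0.92 (228 ± 172 TPM under triple therapy and 49.0 ± 42.8 TPM under isotype, adjusted p = 0.355). Il4ra measured 0.54 ± 0.28, also without overlap. Retnla measured -1.69 ± 1.10 (3.06 ± 1.29 TPM under triple therapy and 14.98 ± 14.0 TPM under isotype, adjusted p = 0.551) and Mgl2 -1.69 ± 0.90 (0.89 ± 0.78 TPM under triple therapy and 7.25 ± 8.79 TPM under isotype, adjusted p = 0.456). Members assigned to the alternative programme thus lay on both sides of 0 in this comparison. The median of the 9 differences was 0.97, beside 0.12 over all genes.

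Irg1 reached the threshold with a pseudocount of 0.1 (adjusted p = 0.0473). Without triple therapy replicate 2, both Irg1 (adjusted p = 0.0147) and Chi3l3 (adjusted p = 0.0388) passed, and 238 of all genes were called. Replicate 1 of this group stood apart, with Krt14, a keratin of basal epidermis, at 11620 TPM and S100a8, a neutrophil protein, at 1618 TPM. In replicates 2 and 3 Krt14 was at 85.65 and 844.88 TPM and S100a8 at 46.42 and 220.16 TPM, against at most 0.63 and 36.89 TPM under isotype. Of the 9 members, 8 were highest in replicate 1 of the group, all but Mgl2. Without it, Irg1 measured 2.17, Nos2 2.09 and Arg1 1.69 relative to isotype. Fibroblast markers summed to 6846 to 30835 TPM under triple therapy and 4446 to 4998 TPM under isotype, without overlap (median difference 1.15, 9 of 10 positive). Lymphatic and blood endothelial markers had a median difference of 1.15 with 8 of 8 tested genes positive, and skeletal muscle markers one of 2.13 with 9 of 10 positive, and 0 of either list were called. The 3 genes called in this comparison were all keratinocyte markers, higher under triple therapy. Keratinocyte markers had a median difference of 6.20 with 14 of 14 tested genes positive. The part of keratinocytes, neutrophils, fibroblasts, endothelium and muscle in the members' values was not tested.

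No gene of the pathway lists was called under triple therapy relative to isotype. Tnf measured 1.14 ± 0.19 (11.4 ± 1.52 TPM under triple therapy and 4.62 ± 0.56 TPM under isotype, adjusted p = 0.0913), and Marco, a scavenger receptor, 1.72 ± 0.48 (adjusted p = 0.316). Of the interferon gamma and Toll-like receptor list, Irf1 measured 0.90 ± 0.27 and Irf8 0.96 ± 0.29 (adjusted p = 0.320 each), although Ifng overlapped at 2.42, 7.71 and 7.66 TPM under triple therapy against 2.32, 1.54 and 5.41 TPM under isotype. The scavenger receptor Msr1 measured 0.87 ± 0.25 (adjusted p = 0.320) and Egr2 1.12 ± 0.36 (adjusted p = 0.334) among other alternative activation genes, and the arginine transporter Slc7a2 1.07 ± 0.39 and Atf3 0.98 ± 0.36 (adjusted p = 0.339 each) among metabolic genes. Ptpn6 (0.82 ± 0.29, adjusted p = 0.339) and Cish (0.75 ± 0.38, adjusted p = 0.437) had the smallest p of the IL-4 and IL-13 pathway, and Csf2ra (0.96 ± 0.31, adjusted p = 0.337) and Maf (0.72 ± 0.31, adjusted p = 0.367) that of the IL-10, CSF and TGF-beta input. Pan-macrophage markers had positive values in 15 of 15 genes with a median of 0.65, led by Cd68 at 0.91 ± 0.25 (adjusted p = 0.316) and Emr1 at 0.99 ± 0.29 (adjusted p = 0.320). With the pan-macrophage level as a covariate, the difference of Irg1 was 1.65 ± 0.37 (adjusted p = 0.882) and that of Nos2 was 1.81 ± 0.57 (adjusted p = 1.000).

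Triple therapy was also set against anti-PD-1 alone in parental tumors. None of the 9 members passed, with 0.0% of all genes called, and 3 members and 1411 of all genes had an unadjusted p under 0.05. Nos2, Irg1, Arg1 and Chi3l3 were higher in each triple therapy library (7.3% of all genes), and none was lower in each (5.01% of all genes). Chi3l3 averaged 53.8 ± 20.1 TPM under triple therapy and 8.93 ± 3.02 TPM under anti-PD-1 (2.45 ± 0.50, adjusted p = 0.241), Irg1 measured 1.499 ± 0.37 (adjusted p = 0.377), Nos2 1.01 ± 0.44 (adjusted p = 0.453) and Arg1 1.46 ± 0.92 (adjusted p = 0.632). Cd163 measured 1.54 ± 0.82, Mrc1 0.42 ± 0.36, Il4ra 0.41 ± 0.28, Retnla -0.14 ± 1.10 and Mgl2 -1.04 ± 0.90, all with overlapping groups.

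Anti-PD-1 was compared with isotype antibody within each line. In parental tumors 0 of 9 members passed, with 0.0% of all genes called, and 2 members and 83 of all genes had an unadjusted p under 0.05. Nos2 averaged 13.3 ± 4.2 TPM under anti-PD-1 and 5.33 ± 1.64 TPM under isotype (1.17 ± 0.44, adjusted p = 1), and Irg1 10.6 ± 1.61 TPM under anti-PD-1 and 5.32 ± 1.10 TPM under isotype (0.88 ± 0.37, adjusted p = 1). Both were higher in each anti-PD-1 library, which 2.7% of all genes showed. The other 7 members overlapped between the groups, with differences of -1.55 for Retnla to 0.81 for Arg1. In UV2 tumors 0 of 9 passed as well, with 0.0147% of all genes called, while 3 members and 1245 of all genes had an unadjusted p under 0.05. Irg1 averaged 34.6 ± 11.8 TPM under anti-PD-1 and 15.7 ± 10.3 TPM under isotype (1.21 ± 0.37, adjusted p = 0.542), Il4ra measured 0.71 ± 0.28 (adjusted p = 0.542) and Nos2 0.98 ± 0.44 (adjusted p = 0.543). Each of the 9 members overlapped between the UV2 groups, whereas 5.7% of all genes were higher and 7.28% lower in each anti-PD-1 library. Under anti-PD-1 relative to isotype, Nos2, Irg1, Arg1, Mrc1 and Il4ra had positive values in both lines, although none of these passed in either. Whether the antibody's effect differed between the lines was tested directly, as a contrast of the contrasts. No member passed, with 0.0% of all genes called and 404 genes at an unadjusted p under 0.05. The largest difference was that of Retnla (2.77 ± 1.56, adjusted p = 0.800) and the lowest that of Chi3l3 (-0.77 ± 0.71, adjusted p = 0.800), and Irg1 (0.33 ± 0.52) and Nos2 (-0.19 ± 0.62) had intervals that include 0, of -0.79 to 1.46 and of -1.54 to 1.15. The comparisons above share groups, since each parental isotype and anti-PD-1 library enters several of them, and are not independent of one another.

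Each member was also described by the 3 genes whose log2(TPM + 1) was most similar over the 15 libraries, by Pearson's r among 12659 named genes. These libraries form 5 groups and share the scaling of each library, so r describes likeness of pattern and has no test. Nos2 was most similar to Adam8 (0.93), Mmp13 (0.87) and Gpnmb (0.87), and Irg1 to the leukocyte integrin chain Itgb2 (0.93), Lilrb4 (0.91) and Nod1 (0.91). For Arg1 the nearest genes were the coagulation factor F7 (0.88), the neutrophil protein S100a9 (0.86) and Tnip2 (0.84), and for Chi3l3 they were Dcstamp (0.87), Dera (0.84) and Abhd3 (0.83). Retnla was most similar to another member, Mgl2 (0.88, and 0.90 for deviations from the group means), then to Flt3 (0.86), a receptor of dendritic cells, and Ppcs (0.85). Mgl2 was nearest to Spcs2 (0.93), Ccl22 (0.92) and Gadd45gip1 (0.89). The genes nearest to Mrc1 were Acrbp, Npr1 and Abcd2 (0.91 each), those nearest to Cd163 were Gfpt2, Slco2a1 and Aplnr (0.96 each), and those nearest to Il4ra were Serping1, Emilin2 and F2rl1 (0.94 each). For deviations from the group means, some pairs had a lower r. The lowest were Chi3l3 with Abhd3 (0.50) and Dcstamp (0.65) and Nos2 with Mmp13 (0.66), whereas Cd163 with Gfpt2 stayed at 0.96.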

How the data were processed

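Bowtie2, RSEM and the builds mm10 and GRCm38 appear in the submitters' processing notes, and versions are not given in the sources used here. The deposited TPM values, computed by the authors, cover 23420 symbols in 15 columns, and 0 further columns were left out. Of the symbols, 4865 were at 0 in every library. The values carry no read depth, so no counting interval is given.

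A linear model of log2(TPM + 1), with 1 coefficient per group, was fitted to all 15 libraries over the 13592 genes at or above 1 TPM in 3 or more of them. It used limma 3.58.1 under R 4.3.3, with empirical Bayes moderation that follows the mean-variance trend and is robust to outlying variances. Tests were two-sided, with Benjamini-Hochberg adjustment over all genes of a comparison, and genes were called at an adjusted p under 0.05. The fit was tested on simulated data. Fold changes on the log2(TPM + 1) scale understate changes of low genes. No test was made over the members as a list, and with 3 against 3 libraries an exact permutation test could not go below p = 0.1.

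The members, the 18 gene lists and the rule for named genes were chosen with earlier results of these data known. Named were all members in every comparison, up to 4 called genes with the smallest p from each pathway list (or 2 where none was called) and the 3 genes most similar to each member. One gene that this rule names is not reported here. Positions come from GENCODE M21 on GRCm38, and promoters from RefSeq. Alternatives were median-of-ratios scaling, quantile normalization, a pseudocount of 0.1, no filter, a TPM minimum of 5, a fit on the compared groups, a replicate block, library weights (estimated gene by gene), the pan-macrophage level as a covariate and leaving out each library. The main fit did not pair libraries by replicate number, and the replicate block was an alternative fitted to all 15 libraries. Only for triple therapy and parental anti-PD-1 did all same-numbered libraries deviate together from the group means (r of 0.35, 0.14 and 0.15). The counts of called genes per list were repeated under these settings for UV2 against parental anti-PD-1, which was decided after seeing the data.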

Additional observations from a re-analysis of the deposited data

How the results depend on the processing

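Of 999 alternative values, 902 kept their direction and their side of the threshold, 64 changed sign, 22 newly passed and 11 no longer passed. The count of members called moved as follows. For UV2 minus parental under anti-PD-1 it was 2, and became 1 with no filter (Retnla at an adjusted p of 0.0518), 6 with library weights, 0 with the macrophage level as a covariate and 0 to 2 when single libraries were left out. For UV2 minus parental under isotype it was 0, and became 3 with library weights and 0 to 1 with single libraries left out. For triple therapy minus isotype it was 0, and became 1 with a pseudocount of 0.1, 5 with library weights and 0 to 2 with single libraries left out. For triple therapy minus anti-PD-1 it was 0, and became 3 with library weights. These weights ranged from 0.241 to 9.29 across libraries and raised the called share of all genes for UV2 minus parental under anti-PD-1 to 8095 of 13592. Calls over all genes also rose from 176 to 2053 for UV2 minus parental under isotype. They rose from 3 to 3312 for triple therapy minus isotype and from 0 to 2273 for triple therapy minus anti-PD-1. Same-numbered libraries correlated above 0.1 in 10 of 30 pairs (r from -0.54 to 0.47), and in all 3 pairs only between triple therapy and parental anti-PD-1, where the replicate block changed no call (0 members, 0 genes). With the replicate block 2 members were called for UV2 minus parental under anti-PD-1, Irg1 at an adjusted p of 0.0285 and Retnla at 0.0452, and 0 in each other comparison.

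Called genes of UV2 minus parental under anti-PD-1 split into 1265 higher and 2321 lower, against 1950 and 1793 with median-of-ratios scaling and 1788 and 2314 with quantile normalization. Under isotype the split was 123 and 53, against 65 and 82 and 72 and 70.

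The values that changed sign belong to differences that did not pass the test, and their cause was not tested. For UV2 minus parental under isotype these were Arg1 (-0.049 with weights, -0.83 with the covariate, -0.74 to 1.05 with single libraries left out), Retnla (-0.20 with the covariate, -0.33 to 1.91), Mrc1 (-0.15 with the covariate), Cd163 (-0.78 to 0.13) and Nos2 (-0.95 to 0.086). For UV2 minus parental under anti-PD-1 the covariate gave Arg1 -1.62, Mrc1 -0.34, Cd163 -1.67 and Il4ra -1.0, and Arg1 was -0.58 to 0.87 with single libraries left out. For anti-PD-1 minus isotype in parental tumors, Chi3l3 was -0.063 with quantile normalization and -0.45 to 0.58 with libraries left out, Il4ra -0.10 to 0.26, Mgl2 -1.37 to 0.20 and Mrc1 -0.25 to 0.46. In UV2 tumors the covariate gave Arg1 -0.14, Mrc1 -0.16 and Cd163 -0.58, weights gave Mgl2 0.19, and with libraries left out Arg1 was -0.073 to 1.72 and Mgl2 -1.43 to 0.17. For triple therapy minus isotype the covariate gave Cd163 -0.43 and Il4ra -0.11. For triple therapy minus anti-PD-1, Retnla was 0.15 with a pseudocount of 0.1, 0.73 with weights and -0.94 to 0.95 with libraries left out, and the covariate gave Mrc1 -0.011 and Il4ra -0.13. For the difference of the antibody's effects, Nos2 was 0.074 with quantile normalization and -0.70 to 0.34 with libraries left out, and Irg1 -0.23 with the covariate and -0.012 to 0.80. Arg1 was 0.16 with median-of-ratios scaling, 0.081 with quantile normalization, 1.05 with weights and -0.88 to 0.91 with libraries left out. Mrc1 was -0.18 with the covariate and -0.14 to 0.57, and Mgl2 0.088, 0.19, 0.075 and 0.33 with median-of-ratios scaling, quantile normalization, a pseudocount of 0.1 and weights, and -0.95 to 0.82.

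With 3 libraries a group and no read depth, differences of Retnla, Arg1, Mgl2 and Cd163 carry standard errors of 0.82 to 1.10 between 2 groups and 1.16 to 1.56 in the comparison of the antibody's effects. Of these differences, only that of Retnla for UV2 minus parental under anti-PD-1 passed in the main fit. Those that did not pass are shown neither to be present nor to be absent.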
